A study of Danio rerio with 31 samples.

Results

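The second day of sampling was compared with the first in zebrafish larvae whose gene expression had been followed over 2 days. The comparison took in 24 of the 31 arrays of the series, chosen by their labels: the arrays of hours 0 to 20 against those of hours 24 to 44, 12 against 12, within each light condition and between arrays of the same clock time. Each array of the first day was therefore paired with the array taken 24 h later under the same light, which gave 6 pairs in LD and 6 in DD. The other 7 arrays, of younger embryos, were not used here.

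The study asked which genes of the larva follow a daily rhythm. Wild-type larvae of the AB strain were raised at 28 °C under 14 h of light and 10 h of darkness, moved at 4 dpf (days post-fertilization) into dishes of 40, and sampled from 5 dpf at intervals of 4 h. From lights-on at 5 dpf, 12 dishes stayed in the light/dark cycle (LD) and 12 were kept in constant darkness (DD), where collection was done under dim red light. One array measured the pooled RNA of the whole larvae of 1 dish, labelled male throughout. The first day (hours 0 to 20) was thus 5 dpf and the second (hours 24 to 44) 6 dpf. The second day differed from the first in the age of the larvae, in their hours in the dish and, in DD, in their hours of darkness, which cannot be told apart in these data. Whether the larvae were fed is not given in the sources used here.

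At this age the larva lives on the last of its yolk, the fat and protein store laid down in the egg, and its gut, liver and pancreas become ready for food from outside. Hatching and the rapid cell divisions of the embryo are past, the skeleton and eye are still growing, and lymphocytes are beginning to mature in the thymus. In fasting fish, as in mammals, the body slows insulin-like growth factor signalling, breaks down muscle protein and turns amino acids and fat into fuel.

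All 14 tissues whose markers were looked up had detected markers. Those of fast muscle had levels of 17.22 to 19.18 on the log2 scale and those of the hatching gland 9.44 to 12.24. The lowest level was that of a melanophore marker (7.07). The median scanner signal per array was 307.2 to 339.1 on the first LD day and 245.8 to 286.2 on the second, and 258.8 to 332.9 and 214.8 to 268.2 in DD. No array had a saturated spot. The share of probes well above background was lowest for DD at 24 h (75.2%) and highest for LD at 28 h (92.0%). Each condition was hybridized on 3 slides of 4 arrays in order of time (0 to 12 h, 16 to 28 h and 32 to 44 h), so only the middle slide held both days. The DD array at 24 h and the LD array at 28 h lay on these middle slides. They also had the lowest correlations between deposited and scanner values (0.9969 and 0.9974). The slide comparisons below rest partly on them. In LD the middle slide differed as a whole. Its 4 arrays had shares of 87.69% to 91.99%, against 82.95% to 86.76% on the other LD slides. Their correlations were 0.9974 to 0.9992, against 0.9997 or more. In DD the shares were 75.18% to 83.11% on the middle slide and 81.59% to 86.95% on the others.

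The 2 days differed in a large share of genes, and by small amounts. Of 29531 genes tested, 7238 were higher on the second day (24.5%) and 5835 were lower (19.8%) at an adjusted p below 5% (limma, Benjamini-Hochberg over all detected probes), with the same direction in LD and in DD. A change of at least 2-fold was seen in 182 of the higher genes (0.616% of all genes tested) and in 382 of the lower ones (1.29%). The second day was higher in all 12 pairs for 2349 genes (7.95%) and lower in all 12 for 2184 (7.4%). Of the genes tested, 11039 matched NCBI genes, and all members of the gene lists below come from these. Among called genes with a symbol, 1035 were higher in all 12 pairs and 1360 lower, so falls were the more common there. The shares of all genes tested are thus no exact base for the lists, and shares of matched genes alone are not given. Over all genes the median change was 0.04 on the log2 scale, on which 1 is a doubling, and all changes below are given on this scale as second minus first day, the mean of LD and DD ± SE, unless they are called folds. Because whole larvae were measured, fewer cells of a type and less RNA per cell cannot be told apart.

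LD and DD were also read separately. In LD, 5694 genes were called higher (19.3%) and 4679 lower (15.8%), and in DD 3652 higher (12.4%) and 3459 lower (11.7%). Called in both with the same sign were 5342 genes, 51.5% of the LD calls and 75.1% of the DD calls, of which 2721 rose and 2621 fell. Called in both with opposite signs were 18 genes. Over the genes tested (no independent replicates) the LD and DD changes had a Pearson correlation of 0.70; no array is shared between them, but their dishes came from larvae raised together.

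**Figure D1:**
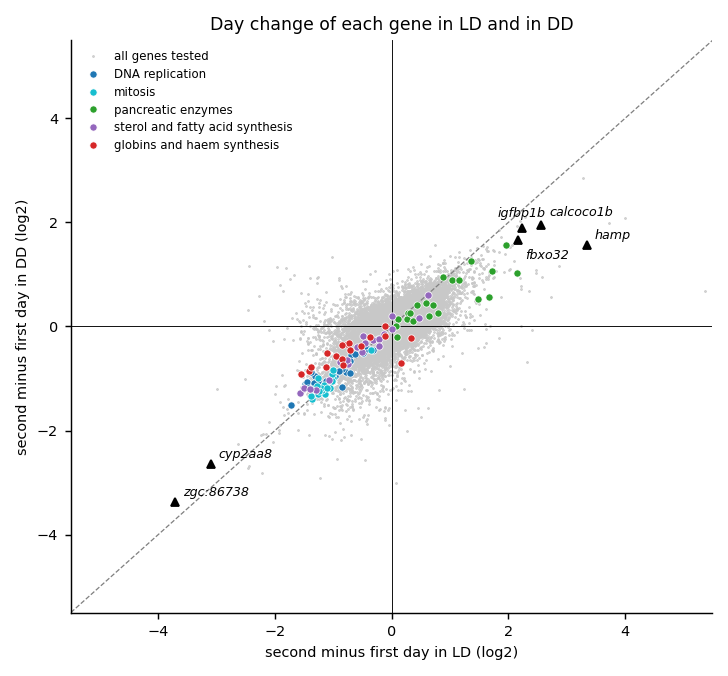
Change from the first to the second day (log2) in LD on the x axis and in DD on the y axis, 1 grey point per gene tested, with members of 5 gene lists in colour and 6 genes named. The replication and mitosis genes lie in the lower left corner, the pancreatic enzymes mostly in the upper right, and calcoco1b, igfbp1b and fbxo32 near the dashed line of equal change.

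The test of the difference between LD and DD called 5 genes (0.0169%), and 2799 had an unadjusted p below 0.05. The one with a gene symbol was pglyrp6, a peptidoglycan recognition protein of innate immunity. In LD its level was 7.81 to 9.29 on the first day (median 8.98) and 9.08 to 9.95 on the second (median 9.42), higher in 6 of 6 pairs. In DD it was 8.23 to 8.99 (median 8.52) and then 7.83 to 8.36 (median 7.99), higher in 0 of 6. The changes were 0.72 in LD and -0.48 in DD, a difference of 1.19 ± 0.15 (adjusted p = 0.031). LD and DD lay on different slides scanned on different days, which cannot be told apart from light here. The 4 others carry only transcript names of the array's design. This count leaned on single pairs: it was 0 to 2 without any one DD pair and 0 or 1 without the LD pair of 8 and 32, 12 and 36 or 20 and 44 h. With clock times 0 and 4 h left out it was 197.

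Slide and day overlap in this design, since the first slide of each condition held only the first day and the third only the second. With slide added to the pairs as a block, the day effect rests on comparisons that pass through the middle slide, and the median SE rose from 0.08 to 0.19. In that fit 43 genes were higher (0.146%) and 33 lower (0.112%), and 72 of these 76 were among the genes called without the block. Of the 13073 genes called without it, 11762 kept their sign. Both fits use the same paired arrays, so this is no independent check of the slide. Over all genes tested, the changes with and without the block had a Pearson correlation of 0.59. Among the genes named below, calcoco1b, ppp1r27b, ifi27.2, defbl2, chia.3, cryaa, crygn1 and acta1b were called with the slide block as well, with adjusted p from 0.031 to 0.044. In the slide fit the pairs of 8 and 12 h count against those of the other hours. It takes the day change as the same at all clock times. For cryaa and crygn1 these pairs were the lowest. Those of cryaa were 0.32 and 0.70 in LD and -0.22 and -0.71 in DD, against 1.05 to 2.01 and 0.71 to 1.85. The calls of cryaa and crygn1 with slide thus rest partly on differences between clock times. For the other changes below, a difference between slides cannot be told apart from one between days at this limit.

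**Figure D2:**
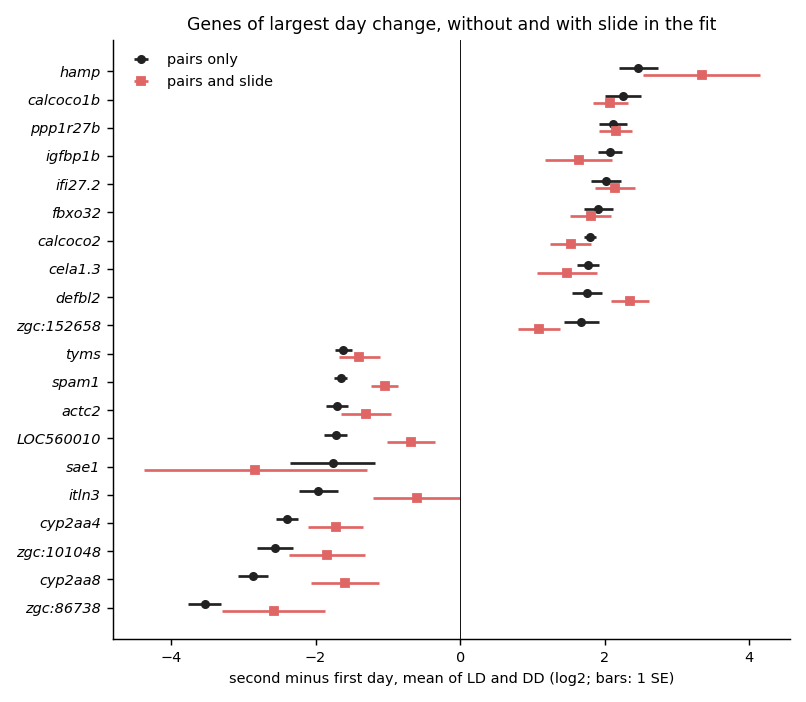
Change from the first to the second day (log2, with bars of 1 SE) for the 10 genes that rose most and the 10 that fell most, from the fit with pairs only (circles) and with slide added (squares). All 20 keep their sign, and the bars are wider with slide in the fit for most of them. itln3 moves from -1.96 to -0.60.

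Genes that respond to fasting were among those that rose most. igfbp1b encodes a binding protein that holds back insulin-like growth factors and rises in starved fish. In LD its level was 12.27 to 14.21 on the first day (median 13.99) and 13.00 to 17.04 on the second (median 16.32), with the 24 h array the one value inside the range of the first day. In DD it went from 12.17 to 14.03 (median 13.67) to 14.16 to 15.98 (median 15.59), with no overlap. It rose by 2.07 ± 0.16, 4.2-fold, in all 12 pairs (adjusted p = 2.4e-06), and its duplicate igfbp1a by 1.03 in 11 pairs.

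fbxo32 encodes atrogin-1, the ubiquitin ligase that marks muscle proteins for breakdown. Its LD levels were 9.30 to 13.42 on the first day (median 12.34) and 11.72 to 14.94 on the second (median 14.31), and in DD they were 10.34 to 13.57 (median 12.49) and 13.17 to 14.34 (median 14.01). The days overlapped in both conditions, and the gene already climbed from 0 to 16 h of the first day. It rose by 1.91 ± 0.20 (3.77-fold, adjusted p = 1.4e-05), and trim63a, which encodes the muscle ubiquitin ligase MuRF1, by 1.17 in all 12 pairs.

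A pair of genes for autophagy receptors and one for a phosphatase subunit were also among the 10 that rose most. calcoco1b, related to mammalian receptors that bring cargo to autophagosomes, had LD levels of 8.88 to 13.22 on the first day (median 11.41) and 12.01 to 14.52 on the second (median 14). In DD these were 10.05 to 13.56 (median 11.93) and 13.16 to 14.40 (median 13.78). Like fbxo32 it already climbed from 0 to 16 h of the first day, the days overlapped, and its change was 2.25 ± 0.25 (4.75-fold). calcoco2, the counterpart of mammalian NDP52, rose by 1.80 ± 0.09 (3.48-fold, adjusted p = 1.6e-07). ppp1r27b, a regulatory subunit of protein phosphatase 1, rose by 2.12 ± 0.20 (4.33-fold).

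**Figure D3:**
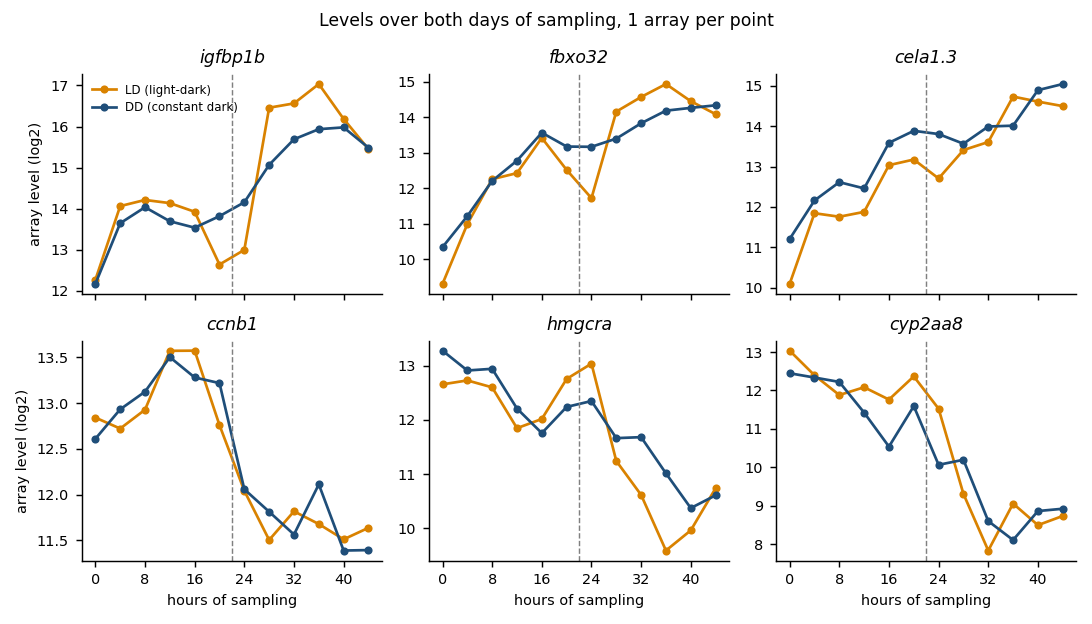
Array level (log2) against hours of sampling for 6 genes, 1 array per point, LD in orange and DD in blue, with a dashed line between the 2 days. igfbp1b, fbxo32 and cela1.3 climb to levels above 14, while ccnb1, hmgcra and cyp2aa8 end below where they began, in LD and in DD.

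Of 35 tested genes of the fasting and fuel switch list, 17 rose (48.6%, against 24.5% of all tested) and 11 fell (31.4%, against 19.8%). The median was 0.22 (0.26 in LD, 0.10 in DD and 0.07 with slide as a block). Beside igfbp1b, igfbp1a, fbxo32 and trim63a, those that rose included genes of amino acid use and of glucose sparing. tat, which starts the breakdown of tyrosine, rose by 1.63 ± 0.11 (3.1-fold), in DD from levels of 13.43 to 13.85 to levels of 14.52 to 15.47, with no overlap, and in LD from 12.74 to 14.32 to 14.28 to 16.71. pdk2b, a kinase that keeps pyruvate out of the citrate cycle, rose by 1.02, fbp1a of gluconeogenesis by 0.74, and foxo1a, a transcription factor held back by insulin, by 0.62. With slide as a block the changes were 0.13 for pdk2b, 0.45 for trim63a, 0.47 for igfbp1a, 0.77 for fbp1a and 0.60 for foxo1a.

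The genes of mitochondrial fat oxidation on the same list moved the other way, with cpt2, hadhab and hadhaa in front of acadl, hadhb, acadvl, acadm and cpt1aa, whose changes lay between -0.60 and -0.19. The change of cpt1aa was -0.34 in LD and -0.04 in DD, where 3 pairs were higher, and acadm passed the limit in neither condition alone. cpt2, the inner carnitine palmitoyltransferase that lets fatty acids into the matrix, had LD levels of 13.12 to 13.54 on the first day (median 13.39) and 11.69 to 12.82 on the second (median 11.97). In DD they were 12.79 to 13.52 (median 13.22) and 11.64 to 12.54 (median 12.04), so the days did not overlap in either condition. cpt2 fell by 1.2 on the log2 scale (SE 0.08, 2.3-fold lower, adjusted p = 1.3e-06). hadhab and hadhaa, both for the alpha subunit of the mitochondrial trifunctional protein, had changes of -0.98 and -0.85, lower in all 12 pairs, and all 3 detected probes of hadhab pointed down.

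On the list of liver plasma proteins and liver enzymes, 9 of 22 tested genes rose (40.9%, against 24.5% of all genes tested). On it 4 fell (18.2%, against 19.8%), and the median was 0.15. tdo2b, which opens the ring of tryptophan, went from 12.20 to 13.18 in LD (median 12.65) to 13.51 to 14.50 (median 14.05), and from 12.24 to 13.14 in DD (median 12.63) to 13.70 to 14.41 (median 13.89). The days lay apart in both conditions, and the rise was 1.33 ± 0.10 (2.51-fold, adjusted p = 2.0e-06). hpda, of tyrosine breakdown, rose by 0.99 and pah, which turns phenylalanine into tyrosine, by 0.77, each in all 12 pairs.

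Named secreted proteins of this liver list went both ways. ahsg1, a fetuin of the blood plasma, rose by 0.94 with the days apart in LD and DD, while prothrombin (f2) had a change of -0.46 and the fibrinogen chain fgb one of -0.28.

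Most called genes of lipid transport and sterol synthesis fell. Of 16 tested yolk and lipoprotein genes, 9 fell (56.25%, against 19.8% of all genes tested) and 3 rose (18.75%, against 24.5%). This list had a median of -0.33. The apolipoproteins of the particles that carry yolk fat into the blood fell: apobb.1 by 0.47, apoeb by 0.56, apoa1a by 0.58 and apoa2 by 0.67, all lower in 12 of 12 pairs. fabp1b.1, a fatty acid binding protein of gut and liver, had a change of -0.78. The largest rise on this list was that of lpla, the lipoprotein lipase that frees fatty acids for uptake into muscle and fat. Its level was 12.72 to 13.33 in LD (median 12.87) and then 13.88 to 14.75 (median 14.48), and 12.80 to 13.68 in DD (median 12.94) and then 14.16 to 14.69 (median 14.50). The days did not overlap, and lpla rose by 1.39 ± 0.08 (2.62-fold, adjusted p = 3.9e-07). apoa1b rose by 1.06, opposite to its duplicate apoa1a, and fabp10a of the liver by 0.31.

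Of 20 tested genes for sterol and fatty acid synthesis, 13 fell (65%, against 19.8% of all genes tested) and 1 rose (5%, against 24.5%). Their median was -0.44. hmgcra, the rate-limiting enzyme of cholesterol synthesis, had LD levels of 11.85 to 12.76 on the first day (median 12.63) and 9.59 to 13.04 on the second (median 10.68). In DD it had 11.76 to 13.28 (median 12.58) and 10.37 to 12.35 (median 11.34). The days overlapped in both conditions; in LD the 24 h array was the highest of the 12 and the 36 h array the lowest. The mean change was -1.43 ± 0.19 (2.69-fold lower, adjusted p = 8.0e-05), lower in 11 of 12 pairs.

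Other steps of the same pathway moved with it. cyp51 had a change of -1.34, lss of -1.30, mvda of -1.25 and hmgcs1 of -1.06, the last 2 lower in all 12 pairs with the days apart in LD and DD. ldlra, the receptor that takes up cholesterol from outside the cell, was the gene that rose, by 0.61 in all 12 pairs.

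Genes of the cell cycle fell as a body. All 31 tested genes of DNA replication and all 21 of mitosis were called lower, against 19.8% of all genes tested. Their medians were -0.96 and -1.21. ccnb1, the cyclin that drives entry into mitosis, had LD levels of 12.72 to 13.57 on the first day (median 12.88) and 11.50 to 12.04 on the second (median 11.66). In DD they were 12.61 to 13.50 (median 13.17) and 11.39 to 12.11 (median 11.69). Every array of the second day was below every one of the first in each condition, with a change of -1.38 ± 0.13 (2.60-fold lower, adjusted p = 8.2e-06). Its partner kinase cdk1 (-1.29) and the kinesin kif20a (-1.36) also had no overlap between days.

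The replication gene with the largest fall was tyms. It encodes thymidylate synthase, which makes the thymidine nucleotide for DNA, and had LD levels of 11.24 to 12.99 (median 12.75) and then 9.06 to 11.97 (median 10.93), and DD levels of 11.45 to 13.16 (median 12.64) and then 9.69 to 11.64 (median 11.23). The days overlapped, since tyms varied within each day, but all 12 pairs were lower and the change was -1.62 ± 0.12 (3.07-fold, adjusted p = 1.7e-06). dut, which keeps uracil out of DNA, had a change of -1.31, the helicase subunits mcm6 and mcm2 each one of -1.29, and pcna, the clamp of the polymerase, one of -1.13. For mcm6 all 4 detected probes pointed down.

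Levels of both lists varied within each day. The median member of the replication list was lower on the second day at every clock time, with differences of -1.18 to -0.43 in LD and of -1.10 to -0.64 in DD. For mitosis the differences were -1.86 to -0.65 in LD and -1.64 to -0.46 in DD. On the middle slide alone, where 24 and 28 h can be set against 16 and 20 h, the mitosis list had medians of -1.10 in LD and -1.12 in DD. The replication list had medians of 0.20 and 0.04 there. The clock times differ in this comparison, so it cannot tell day from clock time. Within the first LD day the mitosis list stood at 0.25 and 0.26 at 0 and 4 h, and at 1.01 and 0.10 at 16 and 20 h. In DD these were 0.10 and 0.49, and 0.81 and 0.56. Of the 28 list medians, 16 moved there by more than their spread (1 SD of the list's median over the 12 pairs), such as those of pancreatic enzymes (0.03 in LD and -0.01 in DD), globins and haem synthesis (-0.08 and -0.13) and oxidative phosphorylation (0.06 and 0.02). With slide as a block the medians were -0.94 for mitosis and -0.65 for replication, and 5 of the 28 moved by more than their spread.

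**Figure D4:**
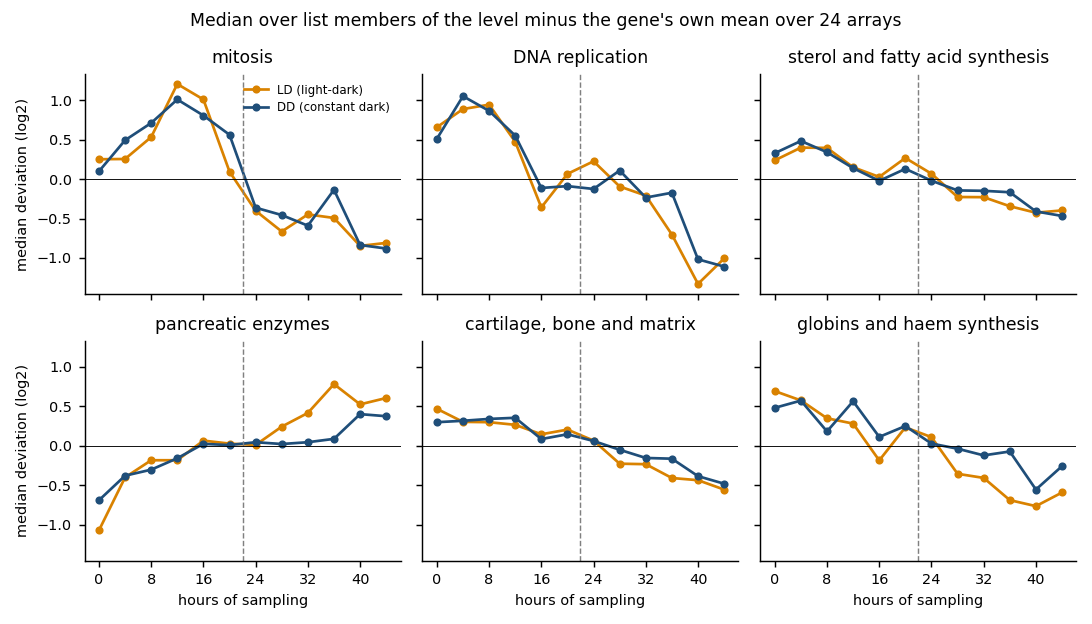
Median over the members of 6 gene lists of the level minus the gene's own mean over the 24 arrays (log2), against hours of sampling, LD in orange and DD in blue, with a dashed line between the days. Mitosis genes peak at 12 h and stay below 0 from 24 h on; pancreatic enzymes rise over both days; the other 4 lists end lower than they began.

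Digestive enzymes of the pancreas rose, and this was the list with the highest median. Of 21 tested genes, 19 rose (90.5%, against 24.5% of all genes tested) and none fell (against 19.8%), with a median of 0.53. The 2 others were the trypsin prss1 (0.04) and the chymotrypsin ctrb.3 (-0.05). cela1.3, an elastase, had LD levels of 10.09 to 13.17 on the first day (median 11.86) and 12.70 to 14.74 on the second (median 14.05). In DD it had 11.20 to 13.89 (median 12.54) and 13.57 to 15.05 (median 14). It climbed through both days, so the groups overlapped, with a change of 1.77 ± 0.15 (3.40-fold, adjusted p = 4.3e-06). zgc:92590 (1.59), the elastase cela1.1 (1.39), the bile salt activated lipase cel.1 (1.3), the carboxypeptidase cpa1 (1.12) and the amylase amy2a (0.42) moved the same way. The changes of cela1.6 (0.13) and prss1 were measured at levels above 18 and up to 19.58, at the top of the normalized scale. Whether this limited the rise seen was not tested. The pancreas marker ctrb1, at a mean level of 19.18, rose by 0.26 in all 12 pairs.

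Intestinal genes moved in both directions, in shares not far from those of all genes tested. Of 20 tested, 4 rose (20%, against 24.5% of all genes tested) and 6 fell (30%, against 19.8%), with a median of -0.03. chia.3, a chitinase of the digestive tract, went from 8.87 to 11.70 in LD (median 10.18) to 11.11 to 12.61 (median 11.75), and from 9.58 to 11.85 in DD (median 10.06) to 11.67 to 12.93 (median 11.95). The days overlapped, and it rose by 1.6 ± 0.19 (3.02-fold, adjusted p = 3.8e-05) in all 12 pairs, whereas chia.6 of the same family had a change of -0.52. mep1ba, a brush border metalloprotease subunit, rose by 0.89. agr2, which helps goblet cells to make mucus, fell by 1.16 in all 12 pairs.

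The genes that fell most included cytochrome P450 enzymes and genes with no known role here. cyp2aa8 belongs to a P450 subfamily known from fish. In LD its level was 11.76 to 13.04 on the first day (median 12.22) and 7.83 to 11.52 on the second (median 8.89). In DD it was 10.54 to 12.45 (median 11.91) and 8.11 to 10.20 (median 8.89). The days did not overlap, and the change was -2.87 ± 0.21 (7.29-fold lower, adjusted p = 1.8e-06). cyp2aa4 of the same subfamily had a change of -2.40 ± 0.15, also with no overlap, and cross-hybridization between the 2 was not tested.

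zgc:86738, for which no role is given here, was another of the 10 that fell most. Its LD levels were 7.44 to 10.75 (median 8.85) and then 4.39 to 8.39 (median 4.98), and its DD levels 6.90 to 10.01 (median 9.05) and then 3.94 to 7.19 (median 5.27). The fitted change was -3.54 ± 0.23, and 3 of the 6 DD arrays of the second day were not well above background, so no exact fold is given. The same holds for zgc:101048 (fitted change -2.56), well above background on 2 of those 6 arrays.

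Others of the 10 largest falls came from varied families. itln3, a lectin that binds microbial sugars, had a change of -1.96 ± 0.26, actc2, an actin, of -1.70 ± 0.15, spam1, of the hyaluronidase family, of -1.65 ± 0.09, and LOC560010 of -1.72 ± 0.16. sae1, a subunit of the enzyme that activates SUMO, had -1.77 ± 0.59 (adjusted p = 0.027). This value leaned on 1 array: LD at 44 h had a level of 4.34, against 11.27 to 12.54 on the second day in DD. Without the LD pair of 20 and 44 h the change was -1.13, and without the DD pair of the same hours the adjusted p was 0.0501.

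Among immune genes, hamp rose most. It encodes hepcidin, the hormone that limits iron uptake and release and responds to iron and inflammation. Its LD levels were 5.73 to 8.06 on the first day (median 7.28) and 9.22 to 11.34 on the second (median 10.87), which did not overlap. In DD they were 7.33 to 9.45 (median 7.91) and 8.44 to 11.29 (median 9.89), which did. It rose by 2.46 ± 0.27 (5.52-fold, adjusted p = 1.8e-05).

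ifi27.2, an interferon-inducible gene, rose by 2.02 ± 0.21, with medians of 8.42 and 11.69 in LD and of 8.30 and 9.18 in DD. The LD change (2.88) was larger than the DD change (1.16), but this difference was not past the limit over all genes (adjusted p = 0.38). defbl2, a beta-defensin-like antimicrobial peptide, rose by 1.76 ± 0.21. zgc:152658, at levels of 3.67 to 8.22, rose by 1.67 ± 0.24. Of the 22 innate immune genes tested, 6 rose (27.3%, against 24.5% of all genes tested) and 2 fell (9.1%, against 19.8%). With a median of 0.08, the list as a whole stayed near the median of all genes. The nitric oxide synthase nos2a rose by 1.15 at low level, and of its 2 detected probes the other pointed the opposite way.

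Of 15 tested lymphoid and thymus genes, 6 rose (40.0%, against 24.5% of all genes tested) and none fell, with a median of 0.09. itk, a kinase of T cell receptor signalling, had LD levels of 5.24 to 6.54 (median 6.33) and then 6.38 to 7.62 (median 7.46), and DD levels of 5.80 to 6.60 (median 6.18) and then 6.91 to 7.93 (median 7.29). The days lay apart in DD, and itk rose by 1.1 ± 0.08 (2.15-fold) and the T helper cell receptor gene cd4-1 by 0.73, both in all 12 pairs. rag1, which cuts antigen receptor genes for rearrangement, rose by 0.44, while its partner rag2 did not pass the limit (-0.54, adjusted p = 0.083). The change of rag2 had the other sign with slide as a block (0.46).

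Of 49 proteasome subunits tested, 19 rose (38.8%, against 24.5% of all genes tested) and 5 fell (10.2%, against 19.8%), with a median of 0.09. The largest rises were those of psmb13a (1.35 ± 0.15), psmb8a (1.26 ± 0.20) and psmb12 (0.79 ± 0.07), catalytic subunits of the immunoproteasome type, and psmb9a of the same type rose by 0.52. psmb13a went from medians of 7.02 in LD and 6.64 in DD to 8.85 and 7.51, with the days apart in LD.

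Red blood cell genes fell. Of 18 tested globin and haem synthesis genes, 13 fell (72.2%, against 19.8% of all genes tested) and none rose (against 24.5%). This list had a median of -0.59. slc4a1a, the anion exchanger of the red cell membrane, had LD levels of 11.91 to 13.50 (median 13.10) and then 10.67 to 12.60 (median 11.38), and DD levels of 12.46 to 13.39 (median 12.87) and then 11.32 to 12.53 (median 12.25). The days overlapped, and the change was -1.23 ± 0.11 (2.34-fold, adjusted p = 5.8e-06), with all 3 probes lower. alas2, the first enzyme of haem synthesis in red cells, had a change of -1.14, cpox of -1.08, and the globins hbae1.1 and hbae3 of -0.76 and -0.54.

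Skeletal matrix genes fell too. Of 32 tested genes for cartilage, bone and matrix, 23 fell (71.9%, against 19.8% of all genes tested) and 2 rose (6.25%, against 24.5%). Their median was -0.58. col9a2, a collagen of cartilage, had LD levels of 16.31 to 16.61 on the first day (median 16.43) and 15.15 to 16.07 on the second (median 15.36). In DD they were 15.98 to 16.63 (median 16.32) and 15.08 to 15.91 (median 15.60). Its change of -0.86 ± 0.06 left no overlap (adjusted p = 1.6e-06). col11a2 had a change of -1.13, hapln1a, which links hyaluronan to cartilage proteoglycan, of -1.08, and the bone and skin collagen col1a1a of -0.78. fn1b, a fibronectin, rose by 0.47.

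Of 33 tested genes of neural progenitors and new neurons, 19 fell (57.6%, against 19.8% of all genes tested) and 1 rose (3.0%, against 24.5%). Their median was -0.21. The gene that rose did so by 0.28, in all 12 pairs. Among those that fell, tubb5 and tuba1c, tubulins of growing cells and axons, had changes of -1.06 and -0.83 with the days apart in LD and DD. fabp7a, of radial glia, had one of -0.78. The stem cell factor sox2 did not pass the limit (-0.09, adjusted p = 0.12). Of 24 synaptic genes 9 fell (37.5%, against 19.8% of all genes tested) and 3 rose (12.5%, against 24.5%), with a median of -0.11. Of 12 myelin genes 3 fell (25%, against the same 19.8%) and 1 rose (8.3%, against 24.5%), with a median of -0.10.

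Of 34 photoreceptor genes 14 fell (41.2%, against 19.8% of all genes tested) and 3 rose (8.8%, against 24.5%), with a median of -0.16. Of the 3 that rose, 1 was higher in all 12 pairs, and the largest rise on the list was 0.56. Among those that fell, the green cone opsin opn1mw1 had a change of -0.63, the cone transducin gnat2 of -0.49 and rpe65a of the visual cycle of -0.64. The change of rpe65a had the other sign with slide as a block (0.01). Of 35 lens genes 8 rose (22.9%, near the 24.5% of all genes tested), none of them in all 12 pairs. On this list 1 fell (2.9%, against 19.8%), and the median was 0.24. Those that rose included the crystallins cryaa (0.90 ± 0.21), crygn1 (0.79 ± 0.19) and crygm2f (0.68 ± 0.15), each higher in 10 of 12 pairs. cryaa had LD levels of 10.62 to 12.72 (median 11.49) and then 11.32 to 14.19 (median 12.83), and DD levels of 10.15 to 12.60 (median 12.25) and then 11.77 to 13.43 (median 11.95). The days overlapped widely. With slide as a block the lens median was 1.42.

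Muscle contractile genes changed little as a list. Of 45 tested, 13 fell (28.9%, against 19.8% of all genes tested) and 6 rose (13.3%, against 24.5%). The median was -0.05, which became 0.09 when each array was scaled to its 75th percentile. The skeletal actin acta1b had LD levels of 17.41 to 18.04 (median 17.68) and then 16.40 to 17.48 (median 16.98), and DD levels of 17.33 to 17.92 (median 17.66) and then 15.91 to 17.11 (median 16.78). The days lay apart in DD. The change was -0.87 ± 0.07 (adjusted p = 2.4e-06), and the calcium store protein casq1a one of -0.68 and the troponin tnnt3a one of -0.55. The calcium pump atp2a2a rose by 0.61.

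Skin and hatching gland genes gave no common direction. Of 27 epidermal genes 5 rose (18.5%, against 24.5% of all genes tested) and 4 fell (14.8%, against 19.8%), with a median of 0.06. The keratins krt1-19e and krt5 had changes of -0.60 and -0.26, with the days apart in LD only. Of the 4 genes found for the hatching gland, the hatching enzyme he1.3 rose by 0.30 and agr1 had a change of -0.38. The third called one was cela1.6, a pancreatic elastase that reached the list through an old synonym.

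Of 21 pigment cell genes tested, 10 fell (47.6%, against 19.8% of all genes tested) and 1 rose (4.8%, against 24.5%). Their median was -0.29. pnp4a, a purine nucleoside phosphorylase known from silvery iridophores, had LD levels of 10.90 to 11.85 (median 11.43) and then 9.39 to 11.62 (median 10.12), and DD levels of 10.25 to 11.70 (median 10.81) and then 8.91 to 10.57 (median 9.74). The days overlapped, and its change was -1.10 ± 0.12 (adjusted p = 1.6e-05), lower in all 12 pairs. paics, of purine synthesis, had one of -0.80.

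Of 32 tested clock genes, 16 rose at matched clock times (50%, against 24.5% of all genes tested). On this list 1 fell (3.1%, against 19.8%), and the median was 0.22. Whether the timing or size of the rhythm changed between days was not tested. nr1d1, which encodes the repressor Rev-erb alpha, ran from 7.80 to 15.70 within the first LD day (median 12.90) and from 9.00 to 16.24 within the second (median 13.62), and in DD from 9.05 to 14.82 (median 13.47) and from 11.24 to 15.67 (median 14.06). The daily swing was thus several times the difference between days, yet all 12 pairs were higher, by 1.02 ± 0.18 (2.02-fold, adjusted p = 7.7e-04). The DD pairs ran from 0.03 at clock time 20 h to 2.50 at 12 h.

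Other clock genes that rose were the period genes per1b (0.71) and per2 (0.26), cry2 (0.58) and the activator clocka (0.57), while npas2 had a change of -0.64 and bmal1b did not pass the limit (0.12, adjusted p = 0.39). clocka had a low mean level of 5.39 and was well above background on 4 of the DD arrays of the second day. Its change was 0.42 in DD alone (limma, adjusted p = 0.15) and 1.19 with slide as a block. With slide as a block npas2 had the other sign (0.10).

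Of 32 hormone and glucocorticoid response genes, 11 rose (34.4%, against 24.5% of all genes tested) and 4 fell (12.5%, against 19.8%), with a median of 0.09. klf9, a transcription factor induced by glucocorticoid and thyroid hormone, had LD levels of 7.30 to 8.50 (median 7.68) and then 8.65 to 9.45 (median 9.20), and DD levels of 7.07 to 8.68 (median 7.52) and then 8.27 to 8.96 (median 8.45). The days lay apart in LD, and klf9 rose by 1.1 ± 0.12 (2.14-fold, adjusted p = 2.4e-05). Another glucocorticoid target, fkbp5, had a change of -0.65, with -0.10 in LD and -1.2 in DD (adjusted p of the difference 0.42). The hypothalamic peptides avp and oxt had changes of -0.52 and -0.43, and oxt had the other sign with slide as a block (0.06).

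Of 22 heat shock and hypoxia genes, 9 fell (40.9%, against 19.8% of all genes tested) and none rose (against 24.5%). Most did not pass the limit, and the median was -0.21. hspa5, the chaperone of the endoplasmic reticulum, had a change of -0.85 ± 0.09 and the small heat shock protein hspb1 one of -0.81 ± 0.08, both lower in all 12 pairs.

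Genes of the ribosome and of mitochondrial respiration moved apart by small amounts. Of 75 tested ribosomal protein genes, 29 rose (38.7%, against 24.5% of all genes tested) and none fell (against 19.8%). Their median was 0.08, or 0.29 with scaling to the 75th percentile. The largest rises were those of rpl10a (0.45), rps28 (0.42) and rpl28 (0.35). Of 70 oxidative phosphorylation genes, 43 fell (61.4%, against 19.8% of all genes tested) and 3 rose (4.3%, against 24.5%), with a median of -0.20. Those that fell included cycsb, a cytochrome c (-0.67), ndufc2 of complex I (-0.57) and cox6b1 of complex IV (-0.56), each lower in all 12 pairs.

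Lysosomal genes went both ways, in shares not far from those of all genes tested. Of 43 tested, 11 rose (25.6%, against 24.5% of all genes tested) and 12 fell (27.9%, against 19.8%), with a median of 0.01. lamp1a of the lysosomal membrane rose by 0.60 in all 12 pairs, while the proton pump subunit atp6v1aa had a change of -0.37 and the cathepsin ctsla one of -0.41. gba3 (-0.82), which the symbol search put on this list, encodes a cytosolic glucosidase in mammals.

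**Figure D5:**
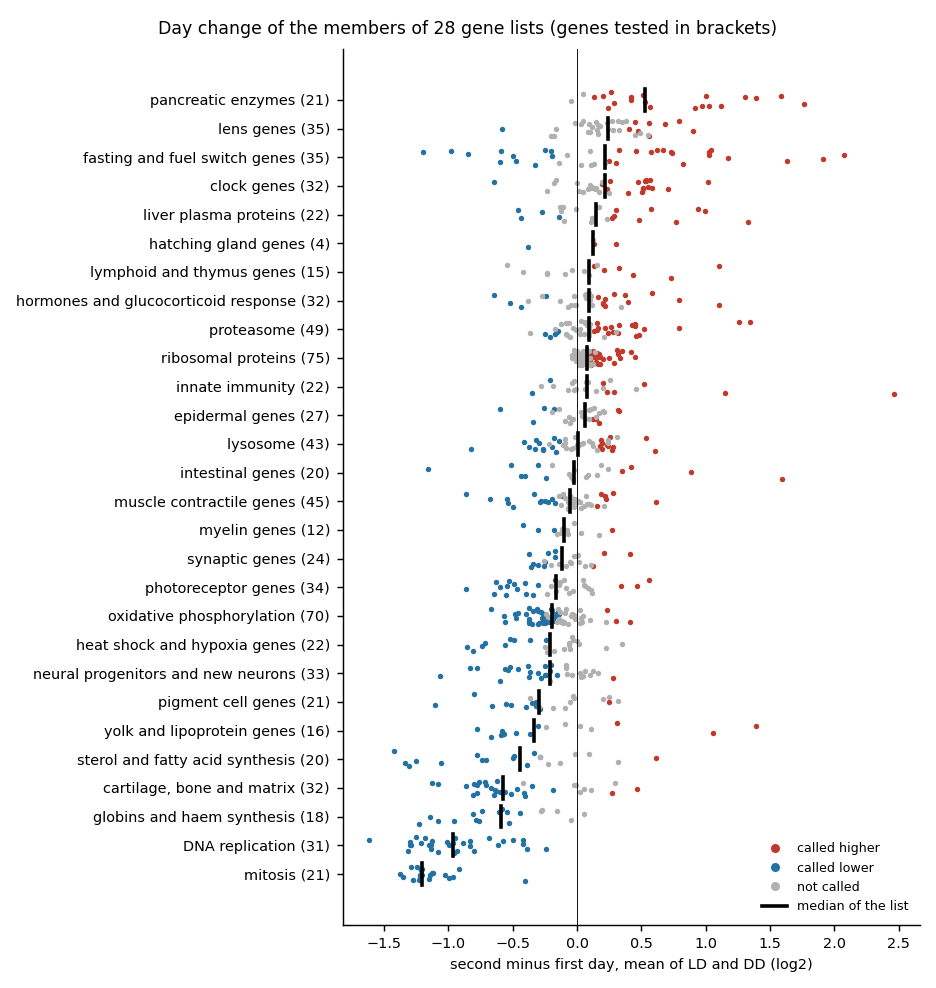
Change from the first to the second day (log2, mean of LD and DD) of every tested member of 28 gene lists, 1 point per gene, red where called higher, blue where called lower and grey where not called, with a black bar at the list's median. The mitosis and replication lists lie wholly below 0, and the pancreatic enzymes have the highest median, at 0.53.

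The 12 arrays of a condition do not overlap between days for 2188 genes in LD (7.41%) and for 1939 in DD (6.57%), and 610 genes (2.07%) were apart in both with the same direction. Of the genes named above, lpla, tdo2b, pah, ahsg1 and fabp10a rose in this way, and ccnb1, cdk1, kif20a, cpt2, hadhab, hmgcs1, mvda, f2, cyp2aa8, cyp2aa4, zgc:101048, sae1, actc2, spam1, col9a2, hapln1a, tubb5, tuba1c and gba3 fell.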

How the data were processed

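Each array was a 1-colour Agilent zebrafish oligonucleotide array of 43603 probes. The authors deposited scanner files, with spot intensity values from Feature Extraction (10.5.1 per the labels, 10.7.3.1 per the file headers), and a matrix of log2 values that they had quantile-normalized with GeneSpring GX 11.0.1. The matrix was the main source, and for these 24 arrays it correlated with the scanner intensities at 0.9969 or more. Its 7 columns of other arrays were not used.

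The 35412 probes that the scanner software rated above background in 75% or more of the 24 arrays were fitted with limma 3.58.1 in R 4.3.3, with the 12 pairs of 1 condition and clock time as blocks and a day effect each in LD and DD. The labels give hours and no replicate numbers, so the pairing comes from the clock time. P-values were adjusted by Benjamini-Hochberg over all detected probes. A gene was called at an adjusted p below 5% with the same direction in LD and in DD. The brightest detected probe stood for a gene. Of the probes, 16568 matched 11484 genes of NCBI RefSeq (GRCz12tu assembly, names only), and the other 27035 were counted under the array's own names. The script was tested on simulated data with independent noise and no slide effect, so that test does not cover the overlap of slide and day.

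The genes with a symbol that were called and moved the same way in all 12 pairs were ranked, and the 10 that rose most and the 10 that fell most were named, with up to 3 called genes in each direction from each of 28 gene lists and up to 4 from the test between LD and DD. This gave 146 genes, of which 103 are named here, beside 33 other list members chosen after their values were seen. The members and lists were chosen with earlier results of these data known. There was 1 array per time point and condition, from a single experiment, so p-values measure the spread among pairs of dishes. The number of arrays limits the precision. Alternatives covered scaling, background correction, detection filter, probe choice, pairing, slide, array position, a trend over hours and leaving out pairs or clock times.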

Additional observations from a re-analysis of the deposited data

Results flagged for a closer look

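The paired differences (second minus first day, log2) of the 136 genes named were looked at in LD and in DD, 1 group of 6 pairs per gene and condition. In these groups 22 single pairs stood far from the other 5 by Dixon's criterion, which chance meets in about 1 of 20 groups. By number alone, many of the 22 could thus be met by chance. Most of them lay at 1 clock time, however, the pair of 0 and 24 h. In DD this pair holds the 0 h array and the 24 h array, which had the lowest share of probes well above background (75.2%). The flags in LD involve neither of these arrays, and which array gave the flags in DD was not tested. In LD, the pair of 0 and 24 h was the one that stood apart for igfbp1b (0.73, the others 2.26 to 2.90), hmgcra (0.38, the others -2.26 to -1.49), cyp51 (0.20), mcm6 (-0.25), chia.6 (0.13), f2 (-0.43), cela1.6 (0.35), prss1 (0.39) and bmal1b (-0.66). In DD the same clock time stood apart for cela1.3 (2.60, the others 1.16 to 1.56), actc2 (-0.43), cpox (0.26), krt5 (0.35), cycsb (-1.28), pah (0.40), cel.1 (2.2) and cpa1 (1.22). The other pairs were those of sae1 at 20 and 44 h in LD (-8.86, the others -1.72 to -0.52), cyp51 at 4 and 28 h in DD (-2.01), apoeb at 8 and 32 h in DD (-1.23), apoa1a at 16 and 40 h in LD (-0.28) and cel.1 at 12 and 36 h in LD (2.02).

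The day change of pglyrp6 differed between LD and DD by 1.19 in the test of the difference itself (limma, adjusted p = 0.031), higher in 6 of 6 LD pairs and in 0 of 6 DD pairs.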

How the results depend on the processing

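With daily cosine and sine curves of each condition in place of the pairs, 7439 genes were higher and 5970 lower. In that fit 10862 changed in LD and 7413 in DD, and 6 differed between LD and DD. Clock time stayed in it, and no fit without clock time was run. With slide as a fixed block the counts were 43, 33, 0, 1 and 1. Of the called genes named, the changes of rpe65a (0.0118), oxt (0.0558) and npas2 (0.10) turned sign. Those of rag2 (0.46), ctrb.3 (0.08) and sox2 (0.03), which were not called, did so too. With slide as a random block 4775 were higher, 5724 changed in LD and 3784 in DD, and 0 differed. Leaving out clock times 8 and 12 h gave 3407 higher, 3153 lower, 3335 in LD, 2514 in DD and 0 that differed. Leaving out 16 and 20 h gave 4572 higher, 4725 in LD, 3455 in DD and 0 that differed. Leaving out 0 and 4 h, with as many arrays, gave 9202 higher, 7072 lower, 14525 in LD, 9484 in DD and 197 that differed. Those that differed numbered 1 without a detection filter and 0 with array position as a term, a setting chosen after seeing the data. Leaving out 1 pair at a time gave 6297 to 7678 higher, 5178 to 6135 lower, 7388 to 11447 in LD, 5271 to 7691 in DD and 0 to 6 that differed. The cause was not tested. With scaling to the 75th percentile the medians of 26 of 28 lists moved by less than their spread, muscle and ribosomal genes being the exceptions. With slide as a block 5 list medians moved by more (replication, lens, synaptic, epidermal and hatching gland), and on the middle slide alone 16.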
